A study of Homo sapiens with 7 samples.

Results

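The knockdown (KD) of the poly(A) polymerase PAPα was compared with its control KD in 3′READS libraries of HEK293 cells, an established human embryonic kidney line. The comparison used 2 of the 7 libraries of the series. One came from cells transfected with an siRNA against PAPα (siPAPα), and the other from cells that received a control siRNA (siCtrl). All libraries of the series came from HEK293 cells, and the others were KDs of PAPγ (siPAPγ), of Star-PAP (siStar-PAP) and of PAPα and PAPγ together, plus a second control and a second siStar-PAP library made with the related 3′READS+ protocol. An siRNA lowers the RNA of its target and does not remove the gene, and the time from transfection to RNA extraction was not given in the sources used here. 3′READS sequences the last stretch of an RNA before its tail. Each read marks a cleavage and polyadenylation site (PAS), and the number of reads tells how often that site was used in the poly(A)-selected RNA. Of the 54353 PASs in the table of these libraries, 51882 in 15468 genes lay on the sense strand of a gene and were taken, and upstream antisense PASs were left out.

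Poly(A) polymerases add the A tail to an RNA after the cleavage complex has cut it. The complex recognises a hexamer just upstream of the cut, most often AATAAA in DNA letters, and a downstream GU-rich element. PAPα, the product of PAPOLA, is the canonical nuclear enzyme. PAPγ (PAPOLG) is its close relative, and Star-PAP (TUT1) is a non-canonical enzyme that also uridylates U6 snRNA. Most human genes carry several PASs. The choice among those of the last exon sets the length of the 3′UTR (3′UTR-APA), and use of a PAS in an intron or an upstream exon (UR-APA) truncates the coding sequence.

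The sense PASs held 8057201 reads in siCtrl and 16191098 in siPAPα. Levels are given in RPM, reads scaled by the sense total of the library, so that 1 read was worth 0.124 RPM in siCtrl and 0.0618 RPM in siPAPα. Each condition had 1 library, so that no difference has a replicate check and no p-value is given. Ratios carry exact 95% intervals that cover counting error only. They may be too narrow even for that, because the reads were not counted as molecules. The words "lower" or "higher" mean a change above 2-fold with more than 50 reads in the pair. In bulk RNA, fewer cells that use a gene and less RNA per cell cannot be told apart. GAPDH gave 4059 RPM in siCtrl and 4075 RPM in siPAPα, and the neurofilament gene NEFL and the filament gene VIM, both known in HEK293 cells, gave 52.0 and 48.2 RPM and 215 and 125 RPM. The other neurofilament gene NEFM was higher in siPAPα (4.34 to 17.3 RPM), as was the actin gene ACTB (6.95 to 15.4 RPM), and the kidney factors LHX1 and PAX2 had 16 and 3 and 8 and 5 reads. No PAS of ALB, PTPRC or HBB, which mark liver, leukocytes and erythroid cells, was listed, and COL1A1 of fibroblasts had 5 and 2 reads. The 10 most used PASs took 16.4% of siCtrl reads and 19.4% of siPAPα reads.

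The sequences printed here end 1 base before the listed PAS. They are 30 bases of the transcribed strand in hg19, written 5′ to 3′ with T for U, and capitals mark the hexamer found in them. The first set holds the main PASs of genes whose levels moved most, 3 that fell and 3 that rose. AATAAA stood before the PASs of CCDC85B and ETV4, which fell, and of NSRP1 and CS, which rose. CCDC85B (chr11:65659076-65659105) went from 2055 to 211 reads, ETV4 (chr17:41605212-41605241) from 1720 to 114 and METRN (chr16:767450-767479) from 265 to 22. AHCYL1 (chr1:110566334-110566363) went from 8 to 416 reads, NSRP1 (chr17:28513456-28513485) from 7 to 400 and CS (chr12:56665484-56665513) from 13 to 322.
CCDC85B, fell: attgggggtAATAAAcccggacggaagcgg
ETV4, fell: accttAATAAAggcccccacttctcccatt
METRN, fell: gggactatcaataagaactctgttcacgca
AHCYL1, rose: cattaaaatcgATTAAAatgataagacctt
NSRP1, rose: gcttaaatgaaAATAAAatgatatgcttat
CS, rose: aaatgcaaAATAAAtgtttttattaacaat

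The next set holds the proximal and distal PAS of genes in which reads moved between both ends of a 3′UTR. In GTPBP1 (chr22:39128215-39128244 and chr22:39129555-39129584), ADCY3 (chr2:25042143-25042172 and chr2:25042039-25042068) and CDCA4 (chr14:105476917-105476946 and chr14:105476279-105476308) the distal share was higher in siPAPα. In CKS1B (chr1:154951691-154951720 and chr1:154953583-154953612), CALM2 (chr2:47387309-47387338 and chr2:47387229-47387258) and FBXO22 (chr15:76226418-76226447 and chr15:76226919-76226948) it was lower. AATAAA stood at both ends in GTPBP1 and in CALM2, which moved in opposite directions.
GTPBP1 proximal: gcattcaaAATAAAagtttgttccaagttg
GTPBP1 distal: tggatgcagAATAAAattgttaatccaatc
ADCY3 proximal: ctgttaAATACActttccgatattgccttg
ADCY3 distal: tgttttATTAAAagctttattcaacttgaa
CDCA4 proximal: acagtgtgaatgtatcatgttttactttaa
CDCA4 distal: acctcactttATTAAAaaattatccagcaa
CKS1B proximal: aaagccttgATTAAAgaggaagtttttata
CKS1B distal: tgctAATAAAgatattggaacatgtggttt
CALM2 proximal: atttgttttccAATAAAaaaattacaattt
CALM2 distal: ttttgaaAATAAAatatggcattggtttct
FBXO22 proximal: atgcctcctagAATAAAgactacatttccc
FBXO22 distal: tatatatatGATAAAaatgcttggaagagt

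The targeted gene, PAPOLA (chr14:96967770-97033453), had 71 reads in siCtrl and 12 in siPAPα. These are 8.81 and 0.741 RPM, a level 11.9-fold lower (95% interval 6.40 to 24.1). PAPOLA stood at 7.61 RPM in siPAPγ and 3.96 RPM in siStar-PAP, and at 0.735 RPM in the double KD, which was counted in a table of its own. Both libraries that received the PAPα siRNA were thus below all others. The PASs of the last exon, which give the full-length mRNA, went from 14 reads to 0, and those in introns went from 57 to 12. The last-exon fall is 9.38-fold when 3 reads are allowed for a count of 0 and the siCtrl count is taken as exact.

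TUT1 (chr11:62342517-62359109) was at 10.3 RPM in siCtrl and 14.1 RPM in siPAPα, a ratio of 1.37 (1.06 to 1.78), and at 9.57 RPM in siPAPγ. Its level of 0.180 RPM in siStar-PAP shows what its own KD did. PAPOLG (chr2:60983388-61029221) had 5 reads in siCtrl, 36 in siPAPα and 15 in siPAPγ, too few for the read filter. Its siCtrl reads were so few that the ratio of 3.58 has an interval of 1.40 to 11.7, and the PAPOLG count also checks little in siPAPγ itself. Among the wider family, FAM46A, a cytoplasmic non-canonical poly(A) polymerase, was higher in siPAPα (21.7 to 57.9 RPM), and PAPD5, which tails aberrant RNAs in the nucleus, was lower (18.1 to 6.49 RPM). In siPAPγ and siStar-PAP FAM46A stood at 48.3 and 42.2 RPM and PAPD5 at 5.42 and 4.50 RPM.

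Of 10808 genes with more than 50 reads, 2021 (18.7%) were lower and 1127 (10.4%) higher in siPAPα. The median log2 ratio was −0.13, with quartiles of −0.78 and 0.46, and 5184 genes were within 1.5-fold. Which direction held more genes depended on the scaling. With TMM factors, which centre the trimmed bulk of the ratios, all log2 ratios moved up by 0.21, the median became 0.08, and 1492 genes were lower and 1617 higher. With 95% intervals wholly past 2-fold there were 1209 lower and 573 higher genes. Of the mRNA genes 18.6% were lower and 10.4% higher, and of the 253 tested noncoding genes 24.5% and 10.7%. In the same table and against the same siCtrl library, 29.1% of tested genes were past 2-fold in siPAPα, 22.5% in siPAPγ and 28.5% in siStar-PAP. The 3′READS+ control, of another protocol and in a table of its own, had 59.6% of 9634 genes past 2-fold from siCtrl. How far library or protocol differences alone move genes was not tested.

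**Figure D1:**
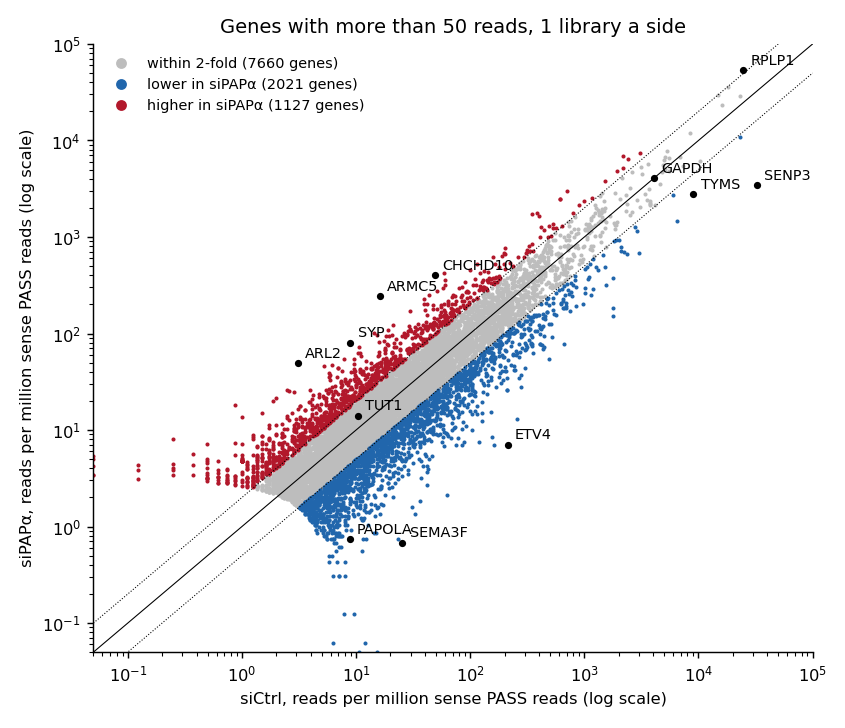
Level of each gene with more than 50 reads in siCtrl (x axis) and siPAPα (y axis), in RPM on log scales, 1 point a gene. The 2021 lower genes lie under and the 1127 higher genes above the genes within 2-fold, and PAPOLA lies at 8.81 and 0.741 RPM.

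The 12 genes with the largest falls, ranked by the end of the interval nearest to no change and with a mean of at least 10 RPM, had ratios of 0.0267 to 0.0850. Transcription factors and signalling genes stood among them. ETV4, an ETS factor that works downstream of FGF signalling, went from 213 RPM in siCtrl to 7.04 RPM in siPAPα, 30.3-fold lower (25.1 to 37.0). It was at 19.1 RPM in siPAPγ, 34.4 RPM in siStar-PAP and 4.32 RPM in the double KD, so that siCtrl was far above each KD. GSC, the goosecoid homeobox factor of the embryonic organizer, fell from 162 to 7.04 RPM, 23.0-fold (19.0 to 28.2), against 12.1 RPM in siPAPγ and 27.7 RPM in siStar-PAP. SEMA3F, a secreted guidance cue of axons, fell from 25.4 to 0.679 RPM, and its levels of 4.61 RPM in siPAPγ and 5.58 RPM in siStar-PAP lay between.

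The most abundant of the 12 was SPATA2L (chr16:89762765-89768113), with 14417 reads in siCtrl and 2463 in siPAPα, or 1789 and 152 RPM. It stood at 272 RPM in siPAPγ and 285 RPM in siStar-PAP. CALCB, which encodes the peptide β-CGRP, fell from 156 to 8.52 RPM, with 9.68 RPM in siPAPγ and 16.1 RPM in siStar-PAP. H2AFJ, a replication-independent H2A gene, fell from 119 to 7.60 RPM (15.7-fold, 13.0 to 19.1), and METRN, a secreted factor of glial differentiation, from 32.9 to 1.36 RPM. RAP1GAP, which switches off the GTPase Rap1, fell from 31.2 to 1.61 RPM, and CCDC85B from 255 to 13.0 RPM. Of the 251 siCtrl reads of RAP1GAP, 230 lay at an intronic PAS that went to 10 reads, so its fall was mainly that of an intronic end. C17orf46, FAM198A and TMEM17, the last a transition-zone protein of cilia, completed the group with ratios of 0.0334, 0.0316 and 0.0515. Of the 507 siCtrl reads of C17orf46, 499 lay at position 43324634 of chromosome 17. That is outside its GENCODE coordinates of 43331760 to 43339461, so their assignment to the gene is uncertain. In all 12 genes siCtrl was the highest of the 4 libraries of the table. The control library of the 3′READS+ protocol, counted in a table of its own, was above siPAPα in all 12 and above all 3 KDs in 8. It ranged there from 2.18 RPM for TMEM17, under the 3.34 RPM of siPAPγ, to 449 RPM for SPATA2L, and SEMA3F at 4.001 RPM and RAP1GAP at 3.64 RPM were also under a KD.

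The 12 largest rises had ratios of 7.12 to 15.9. ARMC5, a tumour suppressor of the adrenal cortex, went from 16.1 RPM in siCtrl to 242 RPM in siPAPα, 15.0-fold (12.6 to 18.0), with 148 RPM in siPAPγ and 16.0 RPM in siStar-PAP. ARL2, a small GTPase that works in tubulin folding, rose from 3.10 to 49.5 RPM (15.9-fold, 10.7 to 24.8), with 42.8 RPM in siPAPγ and 27.0 RPM in siStar-PAP. Mitochondrial proteins were represented by CHCHD10, a protein of the cristae, which rose from 49.4 to 401 RPM, by CS, citrate synthase of the citric acid cycle, which rose from 1.86 to 20.1 RPM, and by MSRA, a methionine sulfoxide reductase, which rose from 58.8 to 420 RPM.

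RPLP0, a protein of the ribosomal stalk, had 16 reads in siCtrl and 347 in siPAPα, or 1.99 and 21.4 RPM, a low siCtrl level that sets its ratio of 10.8 (6.55 to 19.1). NSRP1, a splicing regulator, rose from 2.61 to 25.2 RPM, and AHCYL1, a modulator of IP3 receptors, from 2.48 to 25.7 RPM. AGBL5, a tubulin deglutamylase, rose from 5.21 to 46.5 RPM and stood at 47.2 and 65.6 RPM in siPAPγ and siStar-PAP. Intronic PASs held most of its 753 siPAPα reads, 527 at its main PAS and 195 at another. C1orf122 and HAUS8, the latter a subunit of the spindle's augmin complex, had ratios of 7.12 and 7.65. In 10 of the 12 genes siCtrl was the lowest library of the table. The 3′READS+ control was below siPAPα in 9 and above it in 3, with ARMC5 at 283 RPM, CHCHD10 at 947 RPM and RPLP0 at 144 RPM. The part of the siCtrl library, which all 3 KDs of the table share, in the falls and rises was not tested.

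SYP, a membrane protein of synaptic vesicles and another of the 12 rises, had 8.94 RPM in siCtrl, 10.1 RPM in siPAPγ and 4.14 RPM in siStar-PAP, and 80.4 RPM in siPAPα. The double KD, the other library with the PAPα siRNA, had 104 RPM.

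**Figure D2:**
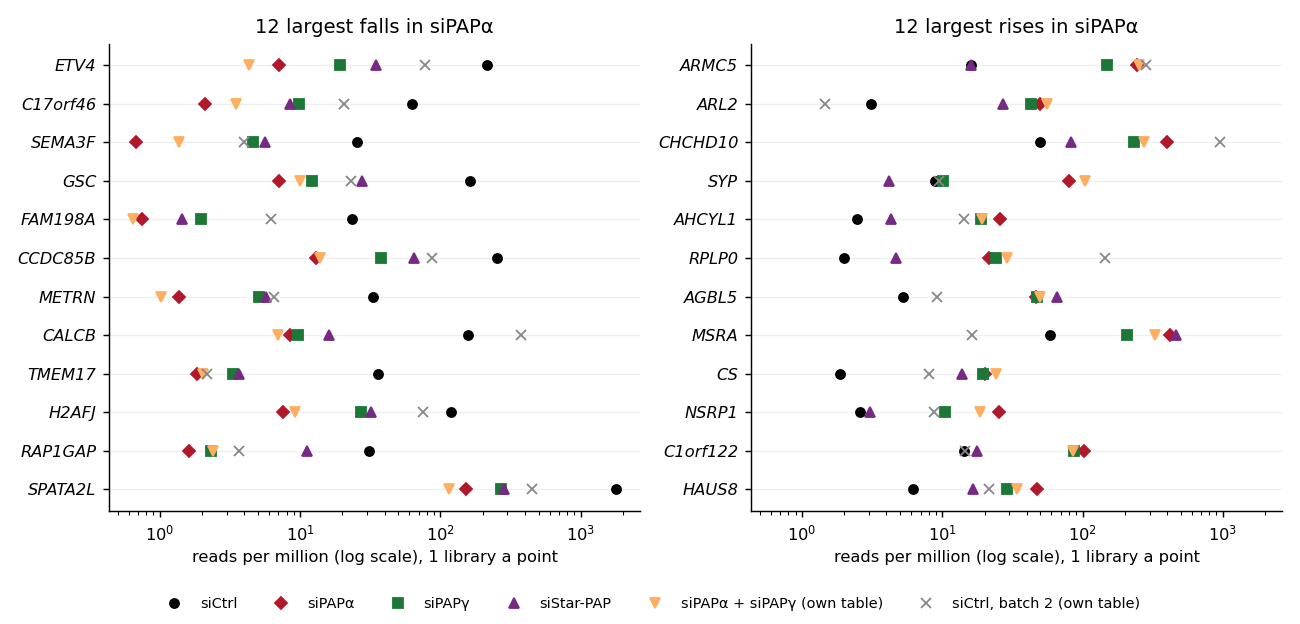
Level in RPM (log scale) of the 12 genes with the largest falls and the 12 with the largest rises, 1 point a library. In all 12 falls siCtrl is the highest of the 4 libraries, and SYP is at 80.4 RPM in siPAPα and 104 RPM in the double KD against 8.94 RPM in siCtrl.

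Of the 10808 tested genes, 243 were more than 2-fold lower in siPAPα than in each of siCtrl, siPAPγ and siStar-PAP. Another 102 were more than 2-fold higher than in each of these. The selection was made after the values were seen and is given with no test. No matching count for another library stands beside it, so it does not show genes particular to siPAPα. The largest in reads was SENP3, a SUMO protease of the nucleolus. It went from 32450 RPM in siCtrl to 3459 RPM in siPAPα, with 19337 RPM in siPAPγ, 15710 RPM in siStar-PAP and 5500 RPM in the double KD. One PAS at position 7475287 of chromosome 17 carried these reads and was the most used PAS of siCtrl, with 3.24% of its reads against 0.346% in siPAPα. The 3′READS+ control, which had no PAPα siRNA and a table of its own, had 5318 RPM for SENP3, close to the double KD. Among the higher genes PHF21B stood at 181 RPM in siPAPα and 201 RPM in the double KD, against 51.3 RPM in siCtrl and 48.9 RPM in siPAPγ. KLHDC2, a substrate receptor of a ubiquitin ligase, did not follow that order, with 250 RPM in siPAPα, 43.3 RPM in siCtrl and 28.4 RPM in the double KD.

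Functions were read from 34 lists of genes of known role, of which 955 of 1001 symbols were found in the table. The largest shift upward was in the cytosolic ribosomal proteins. Of 73 tested members 18 (24.7%) were higher, against 10.4% of all genes, and 1 was lower, and their median log2 ratio was 0.72 against −0.13 over all tested genes. Their sum rose from 74550 to 122279 RPM, most of it through RPLP1, also of the stalk and singled out after its values were seen, whose single PAS took 2.46% of siCtrl reads and 5.35% of siPAPα reads. RPLP0 has been given above, and RPL13A, which shares a PAS with another gene so that its count is uncertain, went from 6.95 to 44.3 RPM. The single member that was lower, RPL27, had 139 reads in siCtrl and 27 in siPAPα and was likewise picked out after its values were seen. With TMM factors 32 members were higher and with the study's PASS read totals 11, so the direction of the group did not depend on the scaling. The list's median was 0.47 in siPAPγ and 0.54 in siStar-PAP, both against the same siCtrl.

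Of 43 translation initiation and elongation factors 8 (18.6%) were higher and 2 (4.65%) lower, against 10.4% and 18.7% of all genes, among them EIF4G1, the scaffold of the cap-binding complex (18.0 to 71.5 RPM), and EIF4A3, the helicase of the exon junction complex, which was lower (61.3 to 16.4 RPM). EIF4G1 stood at 73.3 RPM in siPAPγ and 6.83 RPM in siStar-PAP, and EIF4A3 at 56.5 and 39.3 RPM. Of 39 SR and hnRNP splicing factors 10 (25.6%) were higher and 3 (7.69%) lower. HNRNPA1, a splicing repressor, went from 611 to 2470 RPM and PTBP1, which binds polypyrimidine tracts, from 26.9 to 92.7 RPM, whereas its neuronal paralog PTBP2 went from 42.7 to 3.95 RPM. In siPAPγ and siStar-PAP HNRNPA1 stood at 1266 and 689 RPM, PTBP1 at 74.0 and 48.8 RPM and PTBP2 at 3.46 and 2.52 RPM. The snoRNA host genes SNHG5 and GAS5 were the 2 higher (18.2%) of 11 tested, none of which was lower, at 38.6 and 121 RPM and at 32.5 and 76.2 RPM. Of 18 mRNA export genes 3 (16.7%) were lower and 0 higher, THOC1 most (452 to 152 RPM), and of 29 genes of the signal peptidase, translocon and signal recognition particle 4 (13.8%) and 3 (10.3%).

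Of 73 subunits of oxidative phosphorylation in mitochondria 10 (13.7%) were higher and 6 (8.22%) lower, the latter under the 18.7% of all genes, a balance that became 7 and 9 with PASS read totals. ATP5G1, of the ATP synthase ring, rose from 42.1 to 204 RPM, and the complex I subunits NDUFB11 and NDUFA1 fell from 268 to 34.9 RPM and from 280 to 37.0 RPM. Of 73 mitochondrial ribosomal proteins 4 (5.48%) were higher and 7 (9.59%) lower, both under the shares of all genes, which TMM factors turned to 12 and 4. MRPL34 fell from 848 to 193 RPM and MRPL21 rose from 30.4 to 107 RPM.

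The replication-dependent histones had the lowest median of all 34 lists, −1.99. Their mRNAs normally end in a stem-loop with no poly(A) tail, and only 8 of the 43 listed had the reads for the test. All 8 were below the all-gene median, and 6 (75.0%, against 18.7% of all genes) were lower by more than 2-fold under each of the 4 scalings. HIST1H1C fell from 602 to 113 reads (74.7 to 6.98 RPM) and HIST1H2AG from 3409 to 1239 reads (423 to 76.5 RPM), while HIST1H2BK was at 350 and 264 RPM. The median of the list was −1.10 in siPAPγ and −0.98 in siStar-PAP.

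Of 30 genes of DNA replication 5 (16.7%) were lower and 1 (3.33%) higher, against 18.7% and 10.4% of all genes. Their median was 0.10, with quartiles of −0.77 and 0.47, and their sum was 17810 RPM in siCtrl and 8651 RPM in siPAPα. TYMS, thymidylate synthase, fell from 9029 to 2776 RPM and RRM1, of ribonucleotide reductase, from 128 to 19.6 RPM. In siPAPγ and siStar-PAP TYMS stood at 2829 and 3075 RPM and RRM1 at 47.4 and 28.7 RPM. The 3′READS+ control, in a table of its own, had 354 RPM for TYMS and 13.5 RPM for RRM1.

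Of 26 genes of the extracellular matrix 10 (38.5%) were lower and 2 (7.69%) higher, against 18.7% and 10.4% of all genes, with a median of −0.49. LOXL2, a collagen crosslinker, fell from 21.2 to 3.58 RPM and the basement membrane gene NID1 from 43.6 to 8.15 RPM, while the integrin ITGB1 rose from 5.83 to 26.7 RPM. Of 18 targets of the integrated stress response 6 (33.3%) were lower and 1 higher (median −0.68), with STC2, a secreted glycoprotein, at 63.3 and 8.58 RPM and PPP1R15A, which restarts translation, at 305 and 79.1 RPM. With TMM factors these counts were 3 and 2. Of 18 genes of the unfolded protein response 6 (33.3%) were lower and 0 higher, yet their median equalled that of all genes at −0.13, and TMM factors gave 5 and 3. The disulfide isomerases PDIA3 and PDIA4 fell from 200 to 45.2 RPM and from 50.9 to 13.5 RPM. Of 12 NRF2 targets 4 (33.3%) were lower and 1 (8.33%) higher, the lower ones including NQO1 (35.5 to 5.06 RPM) and HMOX1 (18.9 to 2.84 RPM), both enzymes of the oxidant response. In siPAPγ and siStar-PAP NQO1 stood at 3.80 and 4.50 RPM and HMOX1 at 8.53 and 2.07 RPM. Against the same siCtrl, the matrix list had medians of −0.57 in siPAPγ and −0.82 in siStar-PAP. The stress response list had −0.54 and −0.61 and the NRF2 list −0.39 and −0.56. All genes tested in siPAPγ and siStar-PAP had medians of −0.06 and −0.38. Differences between the KDs in these lists were not tested.

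Of 52 genes of COPI and COPII vesicle coats and tethers 11 were lower, a share of 21.2% that is near the 18.7% of all genes, and 1 was higher. COG2, a tether of the Golgi, fell from 194 to 33.4 RPM, TRAPPC4 from 310 to 68.6 RPM, and KDELR1, a receptor that returns proteins to the ER, rose from 78.1 to 174 RPM. With TMM factors 8 were lower and 5 higher. Interferon-stimulated and innate sensing genes gave 5 (27.8%) lower and 2 (11.1%) higher of 18, against 18.7% and 10.4% of all genes. Cholesterol synthesis genes gave 3 (12.5%) and 3 (12.5%) of 24, and neuronal genes 2 (18.2%) and 3 (27.3%) of 11. The vesicle, cholesterol, interferon, matrix and neuronal lists follow themes that the study drew from these libraries. So do the lists of RNA processing, translation initiation, chaperones and the translocon. Their counts are thus not independent evidence of a direction.

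Among the machinery that PAPα works with, the CPSF list had 2 (18.2%) lower and 1 (9.09%) higher of 11, close to the 18.7% and 10.4% of all genes. CPSF3, the endonuclease that cuts the RNA, fell from 192 to 60.1 RPM, and SYMPK, the scaffold of the complex, from 23.1 to 3.58 RPM. In the list of CstF and the cleavage factors CSTF1 rose from 144 to 433 RPM and CSTF2 from 9.06 to 19.0 RPM. These were the 2 higher (22.2%) of 9, none of which was lower. Of 16 exosome genes 3 (18.8%, the background share) were lower and 1 higher, the lower ones including EXOSC4 (435 to 118 RPM) and EXOSC7 (55.9 to 17.7 RPM). Of 18 deadenylase genes 1 (5.56%) was lower and 3 (16.7%) higher, among them CNOT10 (59.3 to 202 RPM). Of 32 proteasome genes 2 (6.25%) were lower and 5 (15.6%) higher, and of 27 genes of RNA polymerase II and its elongation factors 0 and 2 (7.41%).

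**Figure D3:**
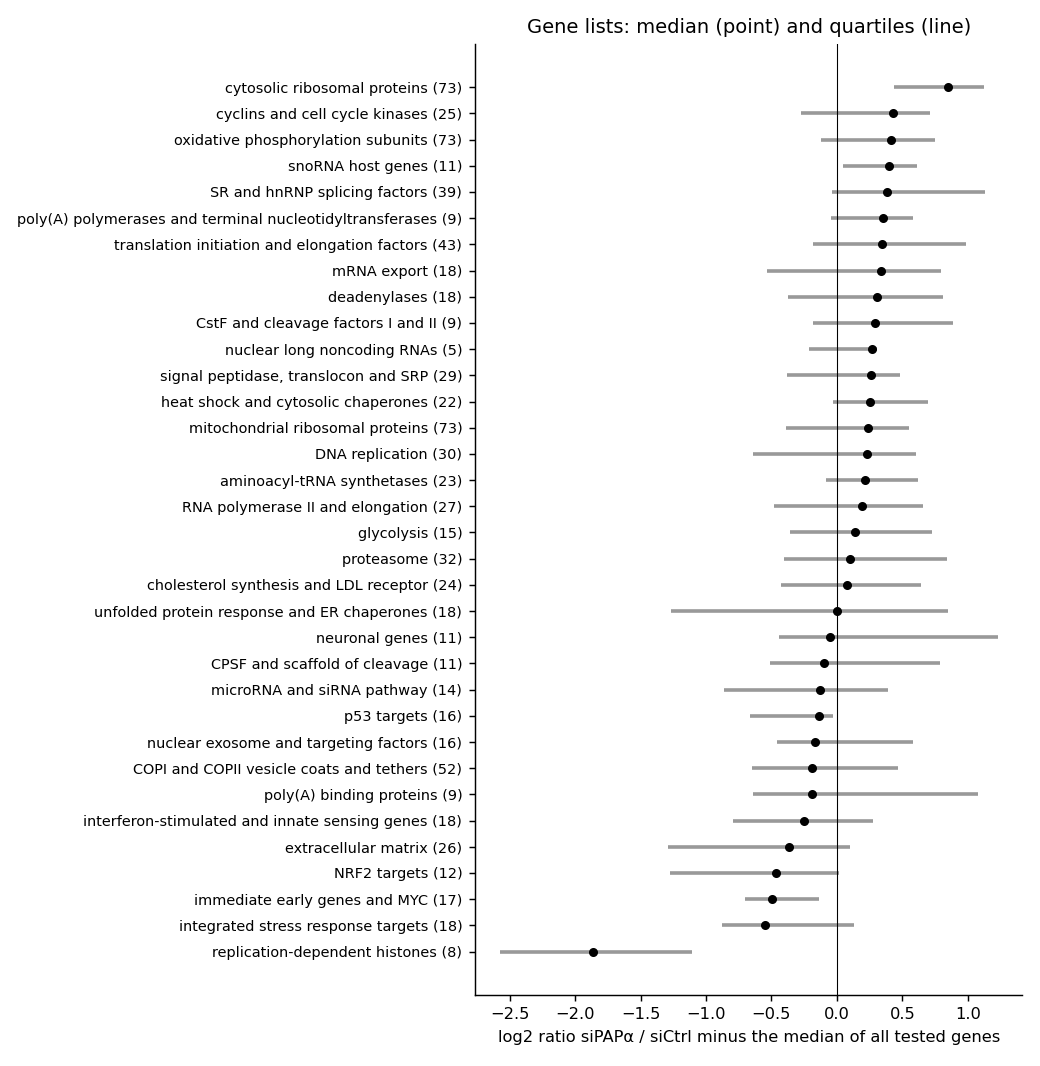
Median (point) and quartiles (line) of the log2 ratio of siPAPα over siCtrl in each of the 34 gene lists, less the median of all 10808 tested genes. Cytosolic ribosomal proteins lie 0.85 above it and replication-dependent histones 1.86 below it, while most lists overlap 0.

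Across single PASs, 14777 had more than 50 reads in the pair, of which 3119 (21.1%) were lower and 2383 (16.1%) higher in siPAPα. The location of the PAS in the gene went with the direction. Intronic PASs were lower most often, 416 of 1163 (35.8%) against 147 higher (12.6%), with a median log2 ratio of −0.50. PASs in upstream exons gave 34 lower and 11 higher of 100. Within the last exon the most proximal PASs were lower in 23.2% and higher in 13.4%, the middle ones in 19.5% and 18.3%, and the most distal ones in 17.2% and 20.4%. TMM factors moved all PAS ratios up by 0.27, so that 2310 PASs were lower and 3396 higher. Intronic PASs then had 29.3% lower and 18.1% higher, and distal PASs 12.4% and 28.0%, while proximal ones turned to 16.8% lower and 19.0% higher.

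The share of all sense reads at intronic and upstream exon PASs was 4.83% in siCtrl and 3.65% in siPAPα, and 4.03% in siPAPγ and 4.94% in siStar-PAP. The Clopper-Pearson intervals of siCtrl (4.82 to 4.85%) and siPAPα (3.64 to 3.66%) did not overlap. Counting error as these intervals measure it was thus small beside the differences, and the spread between replicates is not known.

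By hexamer in the 40 bases before the PAS, on the strand of the gene, PASs with AATAAA were lower in 19.4% and higher in 16.8%. Those with ATTAAA were lower in 21.5% and higher in 15.8%, those with 1 of the 10 other variants in 23.1% and 15.9%, and those with no such hexamer in 28.4% and 12.7%. The difference between PASs with and without a hexamer was also seen within the last exon alone (18.0% lower with AATAAA and 27.2% with none). With TMM factors PASs with none stood at 22.0% lower and 18.9% higher. Lower and higher PASs in introns differed little by hexamer. AATAAA stood before 56.0% of the lower and 54.4% of the higher intronic PASs, and no hexamer before 11.8% and 10.9%.

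GC content over 100 bases on either side of the PAS followed the same direction. With the PASs split into 5 groups by GC, the median log2 ratio was 0.11 in the group with the least GC and 0.04, −0.04, −0.12 and −0.36 in the next ones. Last-exon PASs alone went from 0.14 to −0.34, intronic PASs from −0.30 to −0.93 and PASs with AATAAA from 0.13 to −0.35, so that intronic PASs were below last-exon PASs at both ends of the GC range. In siPAPγ the medians went from −0.03 to −0.16 and in siStar-PAP from −0.43 to −0.52, both against the same siCtrl. GGGG and TGTA, the core of the cleavage factor I motif, were searched in the −100 to −41 nt region, on the transcribed strand only. A run of GGGG was present in 18.7% of lower, 10.4% of higher and 14.0% of all tested PASs. TGTA was present in 36.1%, 41.3% and 38.8%. Among intronic PASs alone GGGG was present in 10.1% of lower, 10.2% of higher and 10.8% of all tested. The GGGG difference was thus not seen in introns. TGTA stood at 27.9%, 35.4% and 32.6% in these intronic groups.

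**Figure D4:**
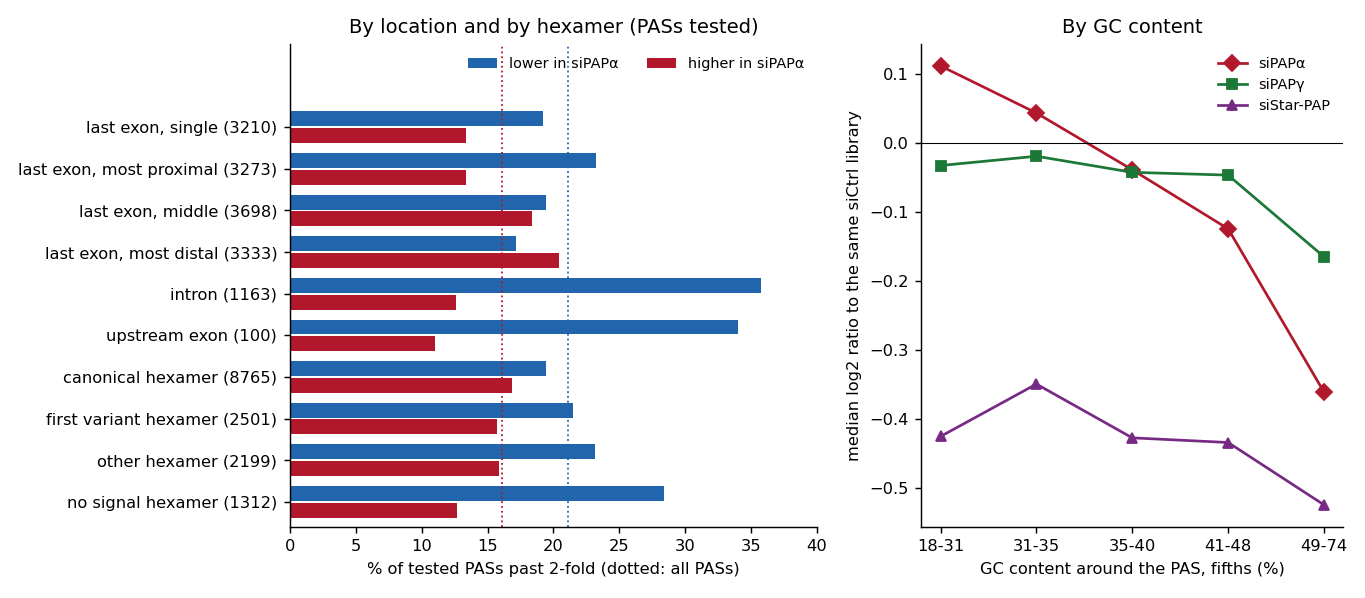
Share of tested PASs past 2-fold by location and by hexamer (bars, % lower and % higher, dotted lines for all PASs, with AATAAA as the canonical and ATTAAA as the first variant hexamer), and median log2 ratio of the 5 GC groups for the 3 KDs. Intronic PASs have the highest share lower (35.8%), and the siPAPα line goes from 0.11 at low GC to −0.36 at high GC.

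The largest single falls in introns were losses to 0 reads. FAM20C, a secretory pathway kinase, had a PAS at position 219880 of chromosome 7 with 80 reads in siCtrl, 0 in siPAPα and 0 in siPAPγ, at least 53.6-fold lower in siPAPα. MACF1, a linker of actin and microtubules, went from 63 to 0 at position 39936527 of chromosome 1, and B4GALNT1, a ganglioside synthase, from 61 to 0 at position 58023112 of chromosome 12. Both were at least 40.9-fold lower, and MACF1 had 1 and 0 reads in siPAPγ and siStar-PAP. The largest intronic rises were from 0 reads too, AGBL5 to 195, IREB2, an iron-responsive RNA-binding protein, to 79 and NEO1, a netrin receptor, to 66. For AGBL5 that is at least 32.3-fold higher.

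In upstream exons WDR33, the CPSF subunit that binds the AATAAA hexamer, went from 573 to 108 reads at position 128520687 of chromosome 2, a ratio of 0.0938 (0.0756 to 0.115), with 186 and 584 reads in siPAPγ and siStar-PAP. IFT80, of the ciliary transport complex, went from 71 to 9 reads and INTS10, of the Integrator complex, from 895 to 279. ATRX, a chromatin remodeller, rose from 39 to 291 reads, CABLES2 from 2 to 60 and SMAP1 from 0 to 53. In last exons PASs of IKZF3, a lymphoid zinc finger factor, and of PAPD5 went from 81 and 76 reads to 0. With the 0 read as 3 they were 54.3-fold and 50.9-fold lower, and the intervals of the ratio reached up to 0.0232 and 0.0247. A PAS of SCD, stearoyl-CoA desaturase, went from 0 to 137 reads, with 21 and 22 reads in siPAPγ and siStar-PAP.

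3′UTR-APA was measured as the share of the distal PAS among reads at the 2 most used last-exon PASs of a gene. With at least 50 reads of the pair in each library, 4153 genes were compared. The distal share was higher in siPAPα by 10 points or more in 1006 (24.2%) and lower in 656 (15.8%), with a median change of 1.61 points. The farther apart the PASs, the more genes moved to the distal one. With the genes split into 3 groups by that distance, 20.6% were higher and 17.3% lower among the closest pairs, 24.1% and 16.5% in the middle group, and 28.0% and 13.6% among the most distant pairs. The median siCtrl distal share was 51.2%, 51.7% and 39.7% in these groups. Split by distal minus proximal GC, 28.2% were higher and 12.8% lower in the lowest group, and 22.4% and 17.8% in the highest. The parts of distance, starting share and GC were not tested. Where AATAAA stood at the distal PAS only, 27.6% were higher and 13.9% lower, and where it stood at the proximal PAS only, 19.2% and 16.7%. In siPAPγ 692 genes were higher and 628 lower of 3861, and in siStar-PAP 686 and 655 of 3790.

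GTPBP1, a GTP-binding protein in RNA turnover, had 629 proximal and 95 distal reads in siCtrl and 70 and 239 in siPAPα. Its distal share was 13.1% and 77.3%, a rise of 64.2 points (Newcombe 95% interval 58.6 to 69.1), with 44.6% in siPAPγ and 69.0% in siStar-PAP. Its 2 PASs, printed above, both carry AATAAA and lie 1340 bases apart. ADCY3, an adenylate cyclase, moved over only 104 bases from 6.81% to 64.4%, with 60.4% in siPAPγ and 11.9% in siStar-PAP. CDCA4, a target of E2F, had 61 proximal and 3 distal reads in siCtrl and 9 and 52 in siPAPα, or 4.69% and 85.2%. GNL3L, a nucleolar GTPase, went from 1.92% to 72.3%, TRAM2 from 26.8% to 98.9% and DNAJB12, an ER membrane co-chaperone, from 28.6% to 91.0%. KIAA1804, a MAP3 kinase, and SYCP2L went from 16.7% to 86.4% and from 17.0% to 87.5%.

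Of the 8 largest falls, CKS1B, a partner of cyclin-dependent kinases, had 21 proximal and 116 distal reads in siCtrl and 142 and 49 in siPAPα, a distal share of 84.7% and 25.7%. CALM2, one of the calmodulin genes, fell from 77.5% to 20.8% between PASs 80 bases apart that both carry AATAAA, with 62.8% in siPAPγ and 73.2% in siStar-PAP. FBXO22, a ubiquitin ligase subunit, fell from 85.7% to 31.5%, and URB2, of ribosome biogenesis, from 92.0% to 28.0%. POLRMT, the mitochondrial RNA polymerase, had 1640 distal reads in siCtrl and 220 in siPAPα, and its share fell from 84.8% to 35.3% between PASs 7284 bases apart. CTDNEP1, a phosphatase of the nuclear envelope, fell from 73.5% to 23.0% as its proximal PAS rose from 280 to 2380 reads. MEX3A and PHF20L1 fell from 76.3% to 4.41% and from 94.6% to 33.7%. The MEX3A PASs lie 21985 bases apart, and whether PASs as distant as those of MEX3A and POLRMT belong to the same 3′UTR was not checked. In siPAPγ and siStar-PAP the shares were 30% and 96.0% for MEX3A, 44.2% and 80.9% for URB2, and 78.8% and 74.4% for PHF20L1.

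UR-APA was measured as the share of a gene's reads at PASs in introns and upstream exons. In 2660 genes with such a PAS and at least 50 reads in each library, the share was lower in siPAPα by 10 points or more in 668 (25.1%) and higher in 239 (8.98%). The median share was 12.5% in siCtrl and 8.59% in siPAPα. In siPAPγ 436 genes were lower and 221 higher of 2386, and in siStar-PAP 344 and 486 of 2375. In siStar-PAP more genes were thus higher than lower, against the same siCtrl library, and the difference between the KDs was not tested.

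BATF3, a leucine zipper factor of dendritic cells and T cells, had 170 reads at its intronic PAS of 207 in all in siCtrl and 19 of 221 in siPAPα. Its upstream share fell from 82.1% to 8.60%, a fall of 73.5 points (66.2 to 79.0), with 52.0% in siPAPγ and 61.5% in siStar-PAP. Both of its last-exon PASs gained reads, from 18 to 106 and from 19 to 96, so that most of its siPAPα reads lay in the last exon. SETD8, the histone H4 K20 methyltransferase, fell from 89.8% to 27.8%, as its intronic PAS went from 342 to 87 reads and its most distal PAS from 38 to 204. MAD1L1, of the spindle checkpoint, fell from 76.4% to 14.4%. ZNF615 and PRUNE2 fell from 87.0% to 19.2% and from 83.7% to 23.5%.

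Fewer genes went the other way. NPM1, the nucleolar chaperone nucleophosmin, had 79 of 687 reads at its intronic PAS in siCtrl and 1409 of 2214 in siPAPα, or 11.5% and 63.6%, with 69.1% in siPAPγ and 48.7% in siStar-PAP. THOC1, of the TREX export complex, rose from 17.1% to 63.6% while its last-exon reads fell from 3016 to 895. POLA1, the catalytic subunit of DNA polymerase α, SLC38A10 and PBX2 rose from 7.89% to 56.7%, from 7.91% to 42.4% and from 8.85% to 49.0%.

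**Figure D5:**
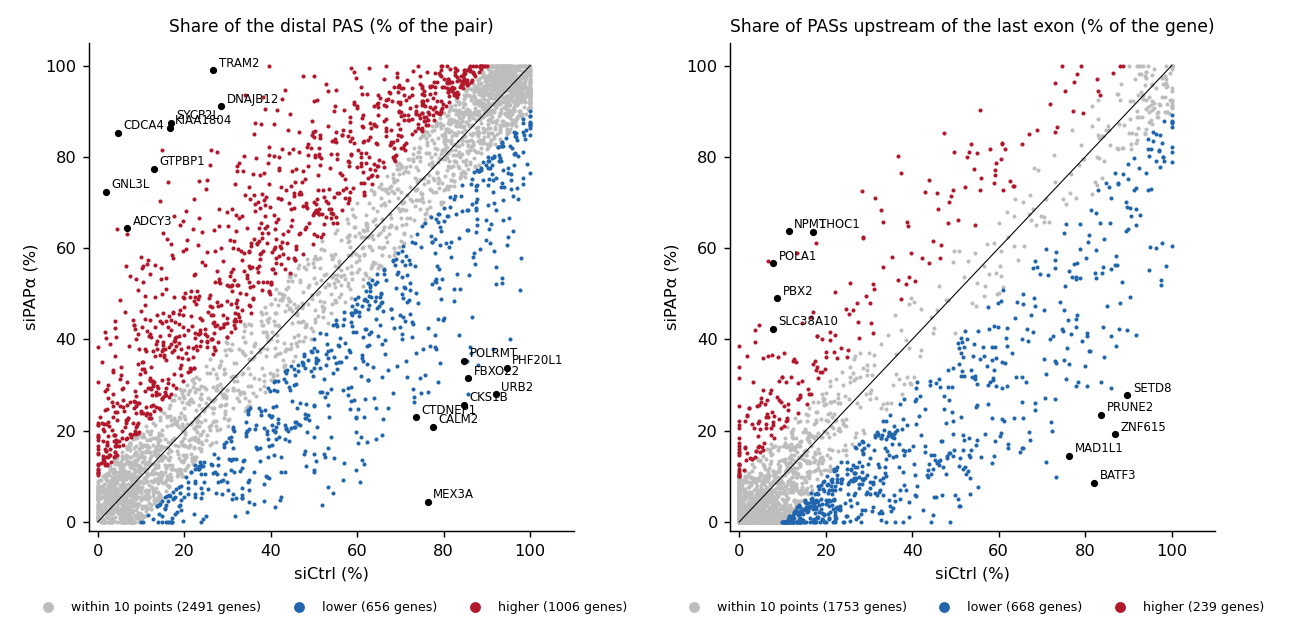
Distal share of the last-exon PAS pair (4153 genes) and upstream share (2660 genes), each in siCtrl (x axis, %) and siPAPα (y axis, %), 1 point a gene. For the distal share 1006 genes lie 10 points or more above the diagonal and 656 below it, and for the upstream share 239 lie above and 668 below.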

How the data were processed

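The libraries were made by the authors from total RNA of siRNA-treated HEK293 cells with poly(A) selection and 3′READS. Per the labels and the study's methods, Bowtie2 was the aligner and hg19 the build. The authors discarded reads with several mapping places or without untemplated terminal bases, merged nearby ends into PASs, and deposited raw counts per PAS that were not normalized. No column was left without a sample (0).

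Sense counts were summed by gene and scaled by the library's sense total (8057201 reads in siCtrl and 16191098 in siPAPα). PASs listed under more than 1 gene (400) entered the totals once, and 2520 antisense rows were left out. A change past 2-fold with more than 50 reads was called, ratios have exact binomial intervals at the 95% level, and differences of shares have Newcombe intervals. A count of 0 was read as allowing 3. With 1 library a condition nothing separates the KD from variation between libraries.

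Named genes are PAPOLA, PAPOLG and TUT1, and those with the largest changes among genes with a mean of at least 10 RPM (12 each way by the interval end nearest to no change, 2 each way in a list), for shares the 8 (distal) and 6 (upstream) each way, and 3 PASs each way in each PAS type. The members and lists were chosen with earlier results of these data known. Hexamers, GC content and sequences come from the hg19 genome, and gene coordinates from GENCODE lifted to that build. Genes outside this rule are named as chosen after their values were seen, apart from the marker and housekeeping genes. Some genes that the rule takes are not reported here.

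Alternatives covered the scaling (edgeR's TMM, DESeq2 size factors and the study's PASS read totals), the read filter, the fold, thinning of siPAPα to the siCtrl total, the APA threshold and PAS pair, Fisher's exact test on reads (a test between 2 libraries, whose p-values are not given), and the reference library. The steps were tested on simulated data. Values were computed in Python 3.11.15 (pandas 2.3.3, numpy 2.4.6, scipy 1.17.1, pysam 0.24.0), figures were drawn in matplotlib 3.10.9, and factors came from edgeR 4.0.16 and from DESeq2 1.42.0 in R 4.3.3.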

Additional observations from a re-analysis of the deposited data

How the results depend on the processing

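With 1 library a condition no replicate could be left out. No paired analysis was possible because siCtrl and siPAPα have 1 library each and no replicate number. PAPOLA kept its fall under each scaling, thinning and the 3′READS+ control, with log2 ratios of −4.47 to −3.36 around −3.57. The 2021 lower and 1127 higher genes became 3882 and 2276 with no read filter, 488 and 195 above 4-fold, 1209 and 573 with the whole interval past 2-fold, 3508 and 2866 against the 3′READS+ control, 770 and 552 against siPAPγ, and 655 and 1853 against siStar-PAP, and above 200 reads 1133 were lower. The references siPAPγ and siStar-PAP were chosen after seeing the data. The 3119 lower and 2383 higher PASs became 5354 and 3836 above 20 reads, 1356 and 1122 above 200 reads, 16983 and 13217 with no filter, 949 and 598 above 4-fold, 1925 and 1118 with the whole interval, and 1448 and 1283 against siPAPγ. Against siStar-PAP 1451 PASs were lower and 3358 higher, and against the 3′READS+ control 3130 and 4384. With TMM factors 2310 PASs were lower and 3396 higher, and with DESeq2 size factors 2236 and 3518. Which direction held more PASs thus depended on the scaling and the reference. The 1006 higher and 656 lower distal shares became 466 and 281 at 20 points and 379 and 232 with at least 200 reads, and the most proximal and most distal PASs gave 418 lower. The 239 higher and 668 lower upstream shares became 95 and 298 at 20 points and 58 and 133 with at least 200 reads. Stricter filters and thresholds count fewer features by construction, and for the other references the cause was not tested. In these results 37 values moved by less than 1.5 times or by less than their error, and 36 moved by more. That rule does not see which direction held more. Of 136 list medians under other settings 124 moved by less than their spread, and 12 of the 34 lists changed the sign of the median under at least 1 of them. Counting error weighed most on genes near 50 reads.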

Other observations

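Upstream antisense PASs, which lie on the opposite strand near a gene's start and entered no comparison, held 42083 reads in siCtrl and 54870 in siPAPα. They were 0.520% and 0.338% of all reads of the table, with 0.388% in siPAPγ and 0.382% in siStar-PAP, so that the share was highest in siCtrl. In the table of the double KD the share was 0.610% in siCtrl and 0.532% in the KD of PAPα and PAPγ.

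Of the 12 genes with the largest falls, 7 had AATAAA before their main PAS and 1 had no hexamer, and the GC content around that PAS ranged from 27.9% to 64.2% with a median of 55.2%. Of the 12 with the largest rises 7 had AATAAA and none lacked a hexamer, and the GC content ranged from 22.9% to 54.2% with a median of 44.8%. By chromosome the median log2 ratio of tested genes lay between −0.29 on chromosome 21 and −0.02 on chromosome 15.

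Of 22 heat shock and cytosolic chaperone genes 1 (4.55%) was lower and 3 (13.6%) higher, against 18.7% and 10.4% of all genes, with HSPA1B, an inducible HSP70, at 120 and 284 RPM. Of 16 p53 targets 2 (12.5%) were lower and 1 (6.25%) higher. Cyclins and cell cycle kinases gave 2 (8%) lower and 3 (12%) higher of 25, with CCND2, a G1 cyclin, at 65.0 and 19.3 RPM and its partner kinase CDK4 at 10.4 and 33.4 RPM. Of 14 genes of the microRNA pathway 3 (21.4%) were lower and 1 (7.14%) higher, near the 18.7% and 10.4% of all genes. With TMM factors these counts were 1 and 2. EIF2C2 (Argonaute 2) was lower at 98.8 and 32.4 RPM, and DICER1, which cuts the hairpins, was higher at 6.33 and 20.5 RPM.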
